A study of Homo sapiens with 12 samples.

Results

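The 10 genes described here encode ATP-binding cassette (ABC) transporters known for carrying drugs out of cells: ABCB1, ABCG2, ABCC1, ABCC2, ABCC3, ABCC4, ABCC5, ABCC10, ABCB4 and ABCA2. They were chosen by name, without use of their values but with earlier results of these data known. They were matched by symbol to the Ensembl identifiers of the deposited table, which lists 43876 genes. All 10 had a row. RNA of MV4-11, a human acute myeloid leukemia (AML) cell line known to carry FLT3-ITD, was sequenced in 12 libraries after 24 h of treatment, with 3 libraries for each of 4 conditions. The conditions were DMSO (the solvent control), Mitoxantrone at 20 nM, Gilteritinib at 25 nM, and a combination of mitoxantrone at 20 nM and gilteritinib at 20 nM. All samples are labelled Wild-type in genotype and come from this 1 line. The labels name the first drug mitoxantrone, without a word on a liposomal form. The paper that reported these data states that the sequenced cells were given mitoxantrone-liposome at 20 nM. Mitoxantrone is kept here as the name in the labels. Nothing in the sources used here says whether libraries 1, 2 and 3 came from separate cultures, so each p-value measures only the spread between these libraries.

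ABC transporters of this kind sit in a membrane and use ATP to move molecules across it. When they sit in the cell surface, they lower the amount of a drug that stays inside. Mitoxantrone, which poisons topoisomerase II and intercalates into DNA, is a classic substrate of ABCG2, a protein first described in mitoxantrone-resistant cells, and of ABCB1, the P-glycoprotein. Gilteritinib, an inhibitor of FLT3 and AXL, is also a substrate of P-glycoprotein. In AML, high P-glycoprotein activity is a long-known marker of poor response to anthracyclines and mitoxantrone.

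The level of a gene is given as FPKM, a number of sequenced fragments divided by gene length and by the size of the library, so that genes of different length can be compared. Single fragments leave steps in these values, from which the depth was recovered as 31725016 to 41330645 fragments per library. A gene is called silent here where its FPKM was below 0.1 in all 12 libraries, expressed where it reached 1 in at least 3 libraries, and low otherwise. The 8 myeloid markers looked up for the labelled cell type were all expressed, with LYZ (mean 699 FPKM over the 12 libraries), FLT3 (158) and SPI1 (77.7) the highest. Of 9 markers of other cell types, 6 were silent (CD3E, MS4A1, EPCAM, ALB, COL1A1 and CDH5), and among the rest HBB (1.04) and PECAM1 (15.3), which myeloid cells are also known to carry, were expressed. In bulk RNA of this kind, fewer cells with a transcript and less of it per cell cannot be told apart.

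Of the 10 transporters, 5 were expressed (ABCA2, ABCC4, ABCC10, ABCC5 and ABCC2), 2 were low (ABCC1 and ABCB4) and 3 were silent (ABCC3, ABCB1 and ABCG2). Both classic mitoxantrone pumps, ABCG2 and ABCB1, were thus silent in all 4 conditions. In DMSO the order of mean FPKM ran from ABCA2 at 26.1 ± 2.0 (SD, n = 3) through ABCC4 at 12.1 ± 1.55, ABCC10 at 9.60 ± 0.629, ABCC5 at 6.17 ± 1.15, ABCC2 at 1.48 ± 0.373 and ABCC1 at 0.741 ± 0.219 to the 4 lowest. These were ABCB4 at 0.0511 ± 0.00566, ABCC3 at 0.0415 ± 0.0234, ABCB1 at 0.0159 ± 0.0276 and ABCG2 at 0.00987 ± 0.00365. ABCA2 stood above ABCC4, ABCC10 above ABCC5, ABCC5 above ABCC2, and ABCC1 above ABCB4 with no overlap over all 12 libraries. ABCC2 was above ABCC1 in each of the 12 libraries. ABCC4 and ABCC10 overlapped in 2 of the 4 conditions, although ABCC4 was the higher in 11 of 12 libraries. ABCB4 and ABCC3 overlapped in every condition, as did ABCB1 and ABCG2, so that the order within these pairs is not settled by the data. The step from ABCC1 to ABCB4 was the widest between neighbours, with a 14.1-fold ratio of mean FPKM over all 12 libraries. Against the protein-coding genes of the table in DMSO, ABCA2 was higher than 86.7% of them, ABCC4 than 72.5%, ABCC1 than 39.4%, ABCB1 than 15.7% and ABCG2 than 13.3%.

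ABCB1 (ENSG00000085563; chromosome 7, 87503633 to 87713323, minus strand, GRCh38) encodes P-glycoprotein. Its FPKM was 0, 0.0478 and 0 in DMSO libraries 1 to 3, 0.0048, 0.0121 and 0.0096 in Mitoxantrone, 0 in each of the 3 Gilteritinib libraries, and 0, 0.0056 and 0 in the combination. The highest value, in DMSO library 2, rested on 9 fragments, and no other library had more than 2. Over the 12 libraries there were 15 fragments in all, which gives a pooled FPKM of 0.0066 with a 95% exact Poisson interval of 0.00369 to 0.0109. This and the other fragment intervals cover counting error only. The 3 Gilteritinib libraries together had 0 fragments, which allows an FPKM of up to 0.00497 by the limit of 3 fragments over the 3 libraries, and of up to 0.00611 by the exact Poisson interval. The DMSO libraries held 9 fragments together (pooled FPKM 0.0164, 0.00752 to 0.0312), an interval above that of Gilteritinib, but all 9 came from 1 library and the other 2 DMSO libraries had 0. The Mitoxantrone libraries held 5 fragments together and the combination libraries 1. RUNDC3B, a gene on the opposite strand whose span overlaps that of ABCB1 without a shared exon base, had a mean FPKM of 1.42. Of the 11 protein-coding genes with a row within 1 Mb of ABCB1, 8 were expressed, beside 10506 of all 17569 protein-coding genes with a row.

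ABCG2 (ENSG00000118777; chromosome 4, 88090264 to 88231322, minus strand) encodes the breast cancer resistance protein and is also a marker of stem-like side population cells. Its FPKM was 0.0057, 0.0114 and 0.0125 in DMSO, 0.0154, 0.0065 and 0.0103 in Mitoxantrone, 0.03, 0.0056 and 0.0273 in Gilteritinib, and 0.0176, 0.0061 and 0.0238 in the combination. Every library held between 1 and 6 fragments, 31 in all, and the pooled FPKM was 0.0146 (95% exact Poisson interval 0.00995 to 0.0208). The Gilteritinib libraries had 12 fragments together and the DMSO libraries 5, with pooled FPKM of 0.0214 (0.0110 to 0.0373) and 0.00982 (0.00319 to 0.0229), intervals that overlap. Library 2 of Gilteritinib and library 1 of DMSO each held 1 fragment. Of the 17 protein-coding genes with a row within 1 Mb of ABCG2, 12 were expressed, beside 10506 of all 17569. Near the expressed transporters the counts ran from 3 of 7 (ABCC4) to 56 of 74 (ABCA2).

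ABCC3 (ENSG00000108846; chromosome 17, 50634777 to 50692252, plus strand) encodes MRP3, an exporter of bile salts and glucuronide conjugates. It was detected in every library, at 0.0682, 0.0243 and 0.032 FPKM in DMSO, 0.061, 0.0221 and 0.022 in Mitoxantrone, 0.0382, 0.0334 and 0.0371 in Gilteritinib, and 0.035, 0.036 and 0.0406 in the combination. These values stood for 4 to 14 fragments per library and 94 in all, and the 4 conditions totalled 22 to 25 fragments each. The 2 libraries with 14 fragments were the first of DMSO and the first of Mitoxantrone. With 0.05 FPKM as the limit in place of 0.1, ABCC3 would no longer count as silent.

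ABCB4 (ENSG00000005471; chromosome 7, 87401697 to 87480435, minus strand), next to ABCB1 on the same strand, encodes MDR3, which moves phosphatidylcholine into bile. It was called low because 2 libraries passed 0.1 FPKM, Mitoxantrone library 2 at 0.1468 (20 fragments) and combination library 1 at 0.139 (21 fragments). The other values were 0.0452, 0.0515 and 0.0565 in DMSO, 0.0404 and 0.0816 in Mitoxantrone libraries 1 and 3, 0.0338, 0.0063 and 0.0431 in Gilteritinib, and 0.0205 and 0.0269 in combination libraries 2 and 3. The pooled FPKM was 0.0852 in Mitoxantrone (41 fragments, 95% exact Poisson interval 0.0612 to 0.116) and 0.0281 in Gilteritinib (14 fragments, 0.0154 to 0.0472), but the single libraries of these 2 conditions overlapped. With a limit of 0.2 FPKM, ABCB4 would also count as silent.

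To look for stretches shared with other genes, the longest protein-coding transcript of each transporter was compared with the GENCODE transcripts of all other genes. Only alignments of 50 nt or more without a mismatch were kept. Longer alignments with a mismatch were dropped, even around an exact stretch, so the search cannot show whether near-identical copies exist. ABCB1, ABCG2, ABCC3, ABCB4 and 5 more had no such alignment with a transcript of another gene. The exception was ABCC10, with 74 bases that it shares with DLK2, the gene on the opposite strand at its end (mean FPKM 2.30). The library kit named in the labels does not mark strand, so reads from those bases cannot be assigned to one of them.

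Promoter sequences were looked up to set the silent mitoxantrone pumps beside expressed transporters in CG content, the feature that marks CpG-island promoters. RefSeq promoter windows (GRCh38.p14, 300 bases around an annotated start) matched 7 of the 10 genes, with 14 windows. A window of the silent ABCB1 (chr7:87600835-87601134), a window of the silent ABCG2 (chr4:88158590-88158889), and the only windows of the expressed ABCC2 (chr10:99782390-99782689) and ABCC4 (chr13:95301402-95301701) are shown 5′ to 3′ on the strand of the gene, with every CG dinucleotide in capitals.
ABCB1: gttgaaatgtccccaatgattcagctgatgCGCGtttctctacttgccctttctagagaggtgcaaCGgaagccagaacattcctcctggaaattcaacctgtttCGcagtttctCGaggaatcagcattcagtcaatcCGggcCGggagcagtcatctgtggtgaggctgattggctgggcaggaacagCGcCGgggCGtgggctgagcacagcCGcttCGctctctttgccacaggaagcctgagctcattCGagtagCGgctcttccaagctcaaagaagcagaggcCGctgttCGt
ABCG2: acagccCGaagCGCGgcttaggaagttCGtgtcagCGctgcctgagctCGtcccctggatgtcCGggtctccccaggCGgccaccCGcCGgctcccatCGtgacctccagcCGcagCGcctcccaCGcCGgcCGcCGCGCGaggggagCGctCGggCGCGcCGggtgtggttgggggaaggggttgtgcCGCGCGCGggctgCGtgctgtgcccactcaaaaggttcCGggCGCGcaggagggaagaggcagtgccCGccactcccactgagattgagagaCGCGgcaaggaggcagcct
ABCC2: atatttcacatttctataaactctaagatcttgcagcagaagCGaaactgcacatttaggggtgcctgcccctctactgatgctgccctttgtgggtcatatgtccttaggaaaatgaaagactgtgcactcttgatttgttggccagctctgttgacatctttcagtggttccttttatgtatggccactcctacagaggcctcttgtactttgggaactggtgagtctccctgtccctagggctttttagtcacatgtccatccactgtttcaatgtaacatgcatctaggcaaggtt
ABCC4: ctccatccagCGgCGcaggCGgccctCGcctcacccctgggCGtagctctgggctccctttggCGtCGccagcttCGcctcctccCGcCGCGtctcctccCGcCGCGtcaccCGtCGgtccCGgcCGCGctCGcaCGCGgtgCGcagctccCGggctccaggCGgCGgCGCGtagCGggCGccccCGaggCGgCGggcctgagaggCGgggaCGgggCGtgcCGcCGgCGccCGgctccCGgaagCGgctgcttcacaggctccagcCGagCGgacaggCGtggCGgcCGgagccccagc

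The printed ABCB1 window held 16 CG, close to the median of 14 over all 35116 windows, and that of ABCG2 held 35, more than 85.9% of windows. The other window of ABCB1 (chr7:87713246-87713545) held 1 CG, and the other 4 windows of ABCG2 held 3, 11, 33 and 33. Among the expressed genes, ABCC2 had 1 CG, ABCC5 26, ABCC10 18 and 20, ABCA2 16 and 66, and ABCC4 47. The CG counts thus overlapped, at 1 to 35 in windows of the silent ABCB1 and ABCG2 and at 1 to 66 in those of the expressed genes. Which annotated start was in use in these cells is not known, and ABCC1, ABCC3 and ABCB4 had no window. A link between CG content and silence was not tested. Searched on both strands, CCAAT was found at 2 places in the printed ABCB1 window and in no other window of the 7 genes, and 34.6% of all windows hold it. TATAAA was found once in the window of ABCC2, once in that of ABCC5 and once in 1 of ABCC10, with 11.5% of all windows holding it. GGGCGG was found in windows of ABCG2, ABCC5, ABCC10 and ABCA2, with 45.0% of all windows holding it. Such matches describe the sequence and name no bound factor.

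ABCC1 (ENSG00000103222; chromosome 16, 15949577 to 16143074, plus strand) encodes MRP1, which exports glutathione conjugates and anthracyclines together with glutathione. It was the low gene nearest to the expressed ones, with 112 to 297 fragments per library. Its FPKM was 0.509, 0.772 and 0.943 in DMSO, 0.730, 1.04 and 1.13 in Mitoxantrone, 0.411, 0.812 and 0.946 in Gilteritinib, and 0.642, 0.911 and 0.889 in the combination. The 2 values above 1 were both from Mitoxantrone, and at each replicate number the Mitoxantrone library was the highest of the 4. The conditions still overlapped, since the spread across replicate numbers was wider than that across conditions.

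ABCC2 (ENSG00000023839; chromosome 10, 99782640 to 99852594, plus strand) encodes MRP2, the canalicular exporter of bilirubin glucuronides and other conjugates. Its FPKM was 1.91, 1.20 and 1.35 in DMSO, 1.98, 1.65 and 1.19 in Mitoxantrone, 1.67, 1.35 and 1.57 in Gilteritinib, and 1.70, 1.15 and 1.12 in the combination. In each condition library 1 was the highest, and all 4 conditions overlapped.

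ABCC4 (ENSG00000125257; chromosome 13, 95019829 to 95301475, minus strand) encodes MRP4, which exports cyclic nucleotides, prostaglandins and nucleotide analogues, and it had the highest mean over the 12 libraries (11.7 FPKM) of the ABCC genes. Its FPKM was 13.9, 11.3 and 11.1 in DMSO, 12.6, 10.5 and 11.1 in Mitoxantrone, 12.3, 11.6 and 11.3 in Gilteritinib, and 13.1, 10.8 and 11.2 in the combination. The first library was the highest in every condition, and the condition means lay within 11.4 and 12.1.

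ABCC5 (ENSG00000114770; chromosome 3, 183919934 to 184018015, minus strand) encodes MRP5, a further exporter of cyclic nucleotides and nucleotide analogues. Its FPKM was 7.50, 5.52 and 5.48 in DMSO, 8.44, 5.46 and 4.84 in Mitoxantrone, 6.08, 6.01 and 5.44 in Gilteritinib, and 7.17, 6.11 and 5.64 in the combination. Mitoxantrone held both the highest and the lowest of the 12 values.

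ABCC10 (ENSG00000124574; chromosome 6, 43427366 to 43450430, plus strand) encodes MRP7, known for exporting taxanes and vinca alkaloids. Its FPKM was 10.3, 9.13 and 9.37 in DMSO, 11.98, 12.6 and 9.67 in Mitoxantrone, 9.33, 10.3 and 9.33 in Gilteritinib, and 10.8, 9.77 and 8.69 in the combination. Mitoxantrone libraries 1 and 2 were the highest 2 of the 12, while Mitoxantrone library 3 fell within the range of the other conditions. At each replicate number the Mitoxantrone library was the highest of the 4.

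ABCA2 (ENSG00000107331; chromosome 9, 137007227 to 137028922, minus strand) encodes a lipid and sterol transporter of late endosomes and lysosomes that has been linked to resistance to estramustine and mitoxantrone. Its FPKM was 23.8, 27.2 and 27.3 in DMSO, 26.9, 28.0 and 24.9 in Mitoxantrone, 21.8, 24.3 and 24.4 in Gilteritinib, and 23.3, 26.3 and 24.6 in the combination. It alone made up 41.0% to 49.2% of the summed FPKM of the 10 genes, which was 51.7 to 62.8 per library. At each replicate number the Gilteritinib library was the lowest of the 4, although the 4 conditions overlapped.

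The treatments were compared in pairs to ask whether a day of drug exposure changed the RNA of these pumps. Differences are given as log2 fold changes on the scale of log2(FPKM + 1), which understates changes of low genes. They were tested with limma over all 12 libraries, two-sided, with Benjamini-Hochberg adjustment over the 18574 genes that reached 1 FPKM in at least 3 libraries. Of the 10 transporters these include the 5 expressed ones, which passed that filter by their level. No count from the filtered fit covers ABCC1, ABCB4, ABCC3, ABCB1 or ABCG2. For ABCC1 the folds come from the same fit without the filter.

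In Mitoxantrone against DMSO, 0 of the 5 expressed transporters passed an adjusted p of 0.05 from limma, where 0% of all genes tested did, and 0 passed an unadjusted p of 0.05, where 7.9% did. ABCC10 had the largest difference, 0.22 higher on the log2 scale (SE 0.11, 95% interval -0.018 to 0.46, adjusted p = 0.665 from limma). By replicate number its differences were 0.20, 0.42 and 0.042, so it was higher in 3 of 3. A fit that blocks on replicate number gave an interval of 0.030 to 0.41 and an adjusted p of 0.258 from limma for this difference. ABCC1 was 0.18 higher in the unfiltered fit (SE 0.16, 95% interval -0.17 to 0.52, adjusted p = 0.877 from limma). By replicate number its differences were 0.20, 0.20 and 0.13, so it was also higher in 3 of 3. That fit has no block, so the interval of ABCC1 includes the spread between replicate numbers. ABCC2 at 0.066, ABCA2 at 0.027, ABCC5 at -0.0047 and ABCC4 at -0.075 had intervals on both sides of 0, of which that of ABCA2 was the narrowest (-0.15 to 0.21) and that of ABCC5 the widest (-0.39 to 0.38). Of these, ABCC4 was lower in 3 of 3 replicate numbers. The median of the 5 was 0.027, beside 0.030 for all genes tested.

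In Gilteritinib against DMSO, 0 of the 5 passed the adjusted threshold (0% of all genes) and 0 the unadjusted one (1.86%). The largest difference was that of ABCA2, -0.15 (SE 0.082, 95% interval -0.33 to 0.035, adjusted p = 0.9999 from limma), and it was lower in 3 of 3 replicate numbers, by 0.12, 0.16 and 0.16. A fit that blocks on replicate number gave an interval of -0.28 to -0.0066 for it, which leaves out 0, with an adjusted p of 0.996 from limma. The folds of ABCC5 (-0.057), ABCC4 (-0.036), ABCC2 (0.036), ABCC1 (-0.021) and ABCC10 (0.0055) were smaller than their standard errors. The median of the 5 was -0.036, beside -0.025 for all genes.

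In the combination against DMSO, 0 of the 5 passed the adjusted threshold (0.00538% of all genes, which is 1 gene) and 0 the unadjusted one (1.67%). The fold of ABCC2 was -0.095 (SE 0.16, 95% interval -0.45 to 0.26), and it was lower in 3 of 3 replicate numbers. ABCA2 at -0.073 (95% interval -0.25 to 0.11) was also lower in 3 of 3, and ABCC1 was at 0.064, ABCC4 at -0.042, ABCC5 at 0.034 and ABCC10 at 0.016. The median of the 5 was -0.042, beside -0.010 for all genes.

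The combination was also set against each drug alone, with the same libraries used again. Against Gilteritinib, whose dose was 25 nM alone and 20 nM in the combination, 0 of the 5 passed the adjusted threshold (0% of all genes) and 0 the unadjusted one (1.63%). The largest fold there was that of ABCC2, -0.13 (SE 0.16, 95% interval -0.48 to 0.22), and ABCC5 at 0.091 and ABCA2 at 0.072 were higher in 3 of 3 replicate numbers. Against Mitoxantrone, 0 of the 5 passed the adjusted threshold (0% of all genes) and 0 the unadjusted one (5.53%). ABCC10 was lower by 0.20 on the log2 scale (SE 0.11, 95% interval -0.44 to 0.034, adjusted p = 0.925 from limma), in 3 of 3 replicate numbers. Blocking on replicate number gave an interval of -0.40 to -0.014, which leaves out 0, with an adjusted p of 0.390 from limma. ABCC2 (-0.16), ABCC1 (-0.11) and ABCA2 (-0.10) were lower in 3 of 3 as well, with intervals that include 0. ABCC4 (0.033) was higher in 3 of 3, and its interval also included 0. The medians of the 5 were 0.011 against Gilteritinib and -0.10 against Mitoxantrone, beside 0.019 and -0.036 for all genes.

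A single F-test for any difference between the 4 conditions called 0 of the 5 transporters at either threshold, where 0% of all genes passed the adjusted and 5.04% the unadjusted one. The lowest p of the 5 was that of ABCC10 (0.181 unadjusted, adjusted p = 0.9999 from limma). Across all 5 comparisons and the 6 genes fitted, the ends of the 95% intervals farthest from 0 were 0.52 (ABCC1 in Mitoxantrone against DMSO) and -0.51 (ABCC2 in the combination against Mitoxantrone). Changes within the intervals cannot be told from the spread between these libraries.

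Because the libraries numbered 1 deviated together, the counts were taken again with the replicate number as a block. At an unadjusted p of 0.05 the blocked fit called 1 of the 5 in Mitoxantrone against DMSO (ABCC10, with 15.9% of all genes called), 1 in Gilteritinib against DMSO (ABCA2, 4.96%) and 1 in the combination against Mitoxantrone (ABCC10, 12.2%). It called 0 in the combination against DMSO (4.35%), 0 in the combination against Gilteritinib (4.39%) and 0 in the F-test over the 4 conditions (12.6%). None of the 5 passed the adjusted threshold of limma in any of these blocked tests. ABCC1, which did not pass the filter, is not in these counts.

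**Figure D1:**
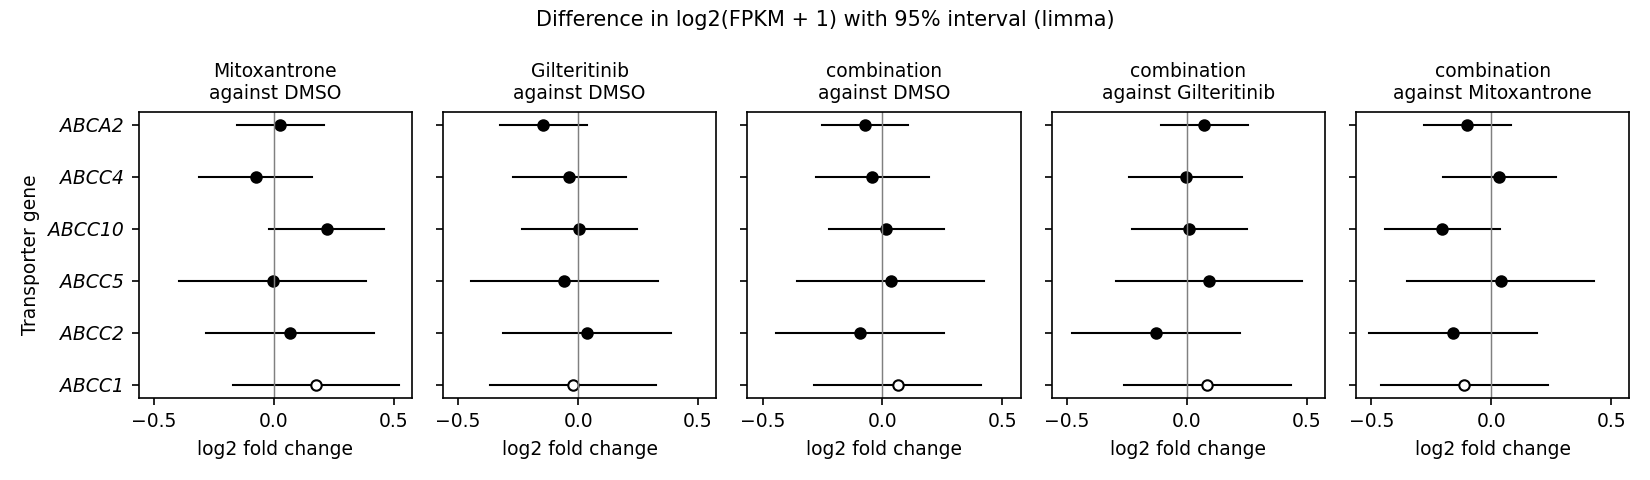
Differences in log2(FPKM + 1) of 6 transporters in the 5 comparisons, with points for the limma estimates and lines for their 95% intervals; the open point is ABCC1, from the fit without a filter. Every interval, from the fit without a block, includes 0, and ABCC10 in Mitoxantrone against DMSO, at 0.22, has the largest estimate.

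The libraries were also compared by replicate number, because earlier results of these data had shown the libraries to separate by it. An F-test over the 3 replicate numbers, with condition in the fit, called 2 of the 5 expressed transporters at an adjusted p of 0.05 (27.9% of all genes tested) and 3 at an unadjusted p of 0.05 (41.6%). Both shares of so few genes are to be read against these high backgrounds. ABCC4 had a mean FPKM of 13.0 over the 4 libraries numbered 1 and of 11.0 and 11.2 over those numbered 2 and 3, and all 4 libraries numbered 1 lay above the other 8. The log2 difference of number 1 from the mean of numbers 2 and 3 was 0.21 for ABCC4 (adjusted p = 0.0204 from limma). For ABCC5 the means were 7.30, 5.77 and 5.35 and the difference 0.33 (adjusted p = 0.0320 from limma), with an overlap, since Gilteritinib library 1 at 6.08 lay below combination library 2 at 6.11. ABCC2, with means of 1.81, 1.34 and 1.31 and a difference of 0.28, passed the unadjusted threshold alone (adjusted p = 0.0688 from limma), and its 4 libraries numbered 1 lay above the other 8.

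ABCC1 went the opposite way. Its mean FPKM was 0.573 over the libraries numbered 1 and 0.883 and 0.976 over those numbered 2 and 3, and every library numbered 1 lay below the other 8. The log2 difference was -0.30 in the fit without a filter (adjusted p = 0.0481 from limma, where 8.98% of 43876 genes passed). Of those 43876 only 18574 reached 1 FPKM in at least 3 libraries, and 27.9% of these passed in the filtered fit. ABCA2 (-0.11, adjusted p = 0.162 from limma) and ABCC10 (0.10, adjusted p = 0.177 from limma) did not pass. In the same unfiltered fit the adjusted p from limma was 0.362 for ABCC3, 0.483 for ABCG2, 0.513 for ABCB1 and 0.960 for ABCB4. On the scale of log2(FPKM + 1) values this low hardly differ, so these p-values say little about those genes.

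These replicate differences depended on scaling and on single libraries. The median over all genes was itself 0.092 higher in the libraries numbered 1, and median-ratio scaling between libraries brought it to -0.0097. Relative to these medians, the differences before and after scaling were 0.24 and 0.23 for ABCC5, 0.19 and 0.21 for ABCC2, 0.12 and 0.10 for ABCC4, 0.0072 and -0.0050 for ABCC10, -0.20 and -0.22 for ABCA2, and -0.39 and -0.34 for ABCC1. After scaling, the adjusted p from limma was 0.226 for ABCC4 and 0.0861 for ABCC5, neither past the threshold, while ABCA2 (0.0164) and ABCC1 (0.0241) passed. Without DMSO library 1 or without combination library 1, ABCC4 no longer passed (adjusted p = 0.0672 and 0.0694 from limma). ABCC5 no longer passed without any 1 of 8 libraries: DMSO 1 or 3, Mitoxantrone 1 or 3, Gilteritinib 3, or combination 1, 2 or 3, with adjusted p from limma of 0.0532 to 0.0953 (0.0705 without the filter on low values). ABCC1 no longer passed without any 1 of the 12 libraries, with adjusted p from limma of 0.0726 to 0.147.

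Other measures moved with replicate number beside these genes, and their part in the differences was not tested. Summed over the 8 myeloid markers, the FPKM was 1020 to 1717 in the libraries numbered 1, 872 to 898 in those numbered 2 and 895 to 941 in those numbered 3, a sum to which LYZ gave the most. The single markers did not move together: LYZ passed the F-test as higher in the libraries numbered 1 (0.91 on the log2 scale), CSF1R (-0.79) and CD33 (-0.27) passed as lower, and the other 5 did not pass. Summed over the 9 markers of other cell types, it was 11.7 to 15.4, 17.0 to 28.7 and 17.6 to 29.1, and of these HBB and PECAM1 passed, with HBB listed at 0 in 3 of the 4 libraries numbered 1. Depth overlapped between the numbers, at 35180968 to 41330645, 31725016 to 36801883 and 32973039 to 39966531 fragments.

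The remaining ABC family genes show how the 10 transporters stood within it. Of 38 further members looked up, 15 were expressed, 8 low and 12 silent, and ABCB5, CFTR and ABCC12 had no row. The most abundant were ABCE1, a ribosome recycling factor (mean 71.3 FPKM over the 12 libraries), and the mitochondrial ABCB10 (30.4). ABCA2, at a mean of 25.2, lay below ABCE1. Its order with ABCB10 varied with replicate number: in DMSO, ABCB10 was at 45.8 in library 1 and at a mean of 24.0 in libraries 2 and 3, where ABCA2 was at 23.8 and 27.3. None of the 15 passed in a treatment comparison at an adjusted p of 0.05 from limma, and by replicate number 5 did, beside 27.9% of all genes tested. Among these, ABCB10 (0.91) and ABCA5 (0.52) were higher on the log2 scale in the libraries numbered 1, and the cholesterol exporters ABCA1 (-1.66) and ABCG1 (-0.84) were lower. TAP1, TAP2 and ABCF1 were silent, but they lie between HLA-F and HLA-DPB1 (chromosome 6, 29722775 to 33087201), where 63 of 87 protein-coding genes were silent (72.4%), against 20.3% of all 17569 protein-coding genes with a row. None of the 10 transporters lies in that stretch.

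Genes that feed or complement efflux were looked up as well. Of 14 uptake carriers for drugs, 5 were expressed, 4 low and 3 silent, and SLCO1B1 and SLCO1B3 had no row. The highest were the nucleoside carrier SLC29A1 (mean 40.1 FPKM), SLCO4A1 (10.4) and the carnitine and ergothioneine carrier SLC22A4 (8.35). Among further genes linked to drug export, MVP (9.97), the major vault protein, was expressed, and SLC47A2 (0.291) and SLC47A1 (0.0627) were low. All 12 genes looked up around glutathione, on which ABCC1 and ABCC2 draw for their substrates, were expressed, with GSTP1 (152), GSTO1 (75.9) and GSTK1 (36.7) the highest. Of 16 genes known to regulate these pumps, 12 were expressed, with YBX1 (171) and NFE2L2 (54.6) among the highest, 3 were low and ESR1 was silent. No gene of these 4 lists passed an adjusted p of 0.05 from limma in a treatment comparison. By replicate number, where 27.9% of all genes passed, 3 of 12 glutathione genes, 2 of 5 expressed uptake carriers and 2 of 12 expressed regulators did. GCLC, GCLM and MGST1 passed as higher in the libraries numbered 1, and SLC29A1, SLCO4A1, SP1 and NFKB1 as lower.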

How the data were processed

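The authors deposited 1 table of FPKM per gene for 12 RNA-seq libraries, with no counts and no further scaling between libraries stated. Per the labels, RNA was extracted with a miRNeasy kit, amplified by Geo-seq and made into libraries with a Tn5-based kit. The submitters' processing notes name Bowtie 0.12.9, Cufflinks 2.1.1, HTSeq, DESeq2 and the mouse build mm10, while the identifiers are human. Which annotation was counted is not given in the sources used here.

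The deposited FPKM were used as log2(FPKM + 1) for the 18574 of 43876 genes that reached an FPKM of 1 in 3 or more libraries. Tests used limma 3.58.1 in R 4.3.3 with a mean-variance trend and 1 mean per condition over all 12 libraries, two-sided, and p-values were adjusted by Benjamini-Hochberg across the genes tested in each comparison. The limma steps were tested on simulated data. Groups came from the sample labels. A symbol was matched to 41461 of the identifiers, and GENCODE release 29 (GRCh38), which gave positions and transcripts, holds 40169 of them. Promoters came from RefSeq (GRCh38.p14).

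Depth was recovered as the fragment total at which FPKM become whole fragments. At GENCODE exon lengths, 64.8% to 67.5% of the values checked per library were whole within 0.1 fragment, and for each of the 10 transporters a length was found at which all 12 values are whole. Where several lengths did, the one with the fewest fragments was taken. Intervals on fragments are exact Poisson at 95%.

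Members, gene lists and tests were chosen with earlier results of these data known. The genes named are all 10 transporters and, of the other 7 lists (further ABC genes, uptake carriers, further export genes, glutathione genes, pump regulators, myeloid markers and markers of other cell types), the 3 with the highest mean FPKM and those past the threshold, apart from a few genes not reported here. Genes named outside this rule (those silent, low or without a row, RUNDC3B, DLK2 and the HLA stretch) were chosen after their values were seen. After subtraction of the condition means, the 18 pairs of libraries that share a replicate number had correlations of 0.165 to 0.657. Pairs numbered 1 had 0.491 to 0.657, and pairs numbered 2 or 3 had 0.165 to 0.474. A shift of the libraries numbered 1 alone also leaves a shared remainder in those numbered 2 and 3. Pairs across numbers were not computed, so pairing within numbers 2 and 3 is not shown. No source says what a number stands for. The alternatives were a pseudocount of 0.1, no filter, median-ratio scaling, the replicate number as a block, replicates 2 and 3 only, each library left out, and limits of 0.05 and 0.2 FPKM for silent genes.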

Additional observations from a re-analysis of the deposited data

How the results depend on the processing

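At an adjusted p of 0.05 from limma, the 6 tests between conditions called 0 of the transporters tested under each setting, and all 10 were tested only in the fit without a filter. The replicate block left these counts at 0, and at an unadjusted p it moved them from 0 to 1 in 3 of the 6 tests. Over all genes, the adjusted calls varied with the setting. With replicates 2 and 3 only, 1197 of 17611 genes passed in Mitoxantrone against DMSO, 119 in Gilteritinib against DMSO and 11 in the combination against DMSO. In that setting 12 passed in the combination against Gilteritinib, 1182 in the combination against Mitoxantrone and 972 in the F-test. In every other setting at most 36 genes passed in any of these tests. The 30 fold changes of 6 transporters had an adjusted p of 0.258 or more from limma under all alternatives, and the largest reached 0.36 on the log2 scale in size. Of these folds, 19 changed sign under some alternative, none of them past the threshold, and the cause was not tested. In Mitoxantrone against DMSO, leaving out 1 library at a time gave -0.037 to 0.19 for ABCC2, -0.14 to 0.020 for ABCC4, -0.21 to 0.14 for ABCC5 and -0.036 to 0.073 for ABCA2. In Gilteritinib against DMSO, leaving out 1 library at a time gave -0.047 to 0.15 for ABCC2, -0.090 to 0.059 for ABCC4, -0.12 to 0.072 for ABCC5, -0.036 to 0.053 for ABCC10 and -0.12 to 0.12 for ABCC1. In the combination against DMSO, leaving out 1 library at a time gave -0.21 to 0.024 for ABCC2, -0.12 to 0.053 for ABCC4, -0.049 to 0.16 for ABCC5, -0.052 to 0.088 for ABCC10 and -0.036 to 0.15 for ABCC1. In the combination against Gilteritinib, leaving out 1 library at a time gave -0.084 to 0.047 for ABCC4, -0.058 to 0.083 for ABCC10 and -0.053 to 0.18 for ABCC1. In the combination against Mitoxantrone, leaving out 1 library at a time gave -0.045 to 0.10 for ABCC4 and -0.10 to 0.25 for ABCC5. With median-ratio scaling the sign turned for ABCC4 (0.013) in Gilteritinib against DMSO, ABCC10 (-0.031) in the combination against Gilteritinib and ABCA2 (-0.019) in Mitoxantrone against DMSO. With replicates 2 and 3 only it turned for ABCC4 (0.024), ABCC5 (0.047) and ABCC1 (0.017) in Gilteritinib against DMSO, ABCC10 in the combination against DMSO (-0.0047) and against Gilteritinib (-0.078), and ABCA2 (-0.045) in Mitoxantrone against DMSO.

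The count of transporters called by replicate number was 2. It was 1 with median-ratio scaling and 0 to 2 with 1 library left out, at 0 without DMSO replicate 1 or combination replicate 1. The 1 called with scaling was ABCA2, while ABCC4 and ABCC5 no longer passed. Over all genes, 5177 of 18574 were called in the main fit and 4866 of 18440 with scaling. With 1 library left out, the calls ran from 2999 of 18348 (without combination replicate 1) to 4860 of 18518 (without DMSO replicate 2). The count of silent transporters was 3, with 2 at a limit of 0.05 FPKM and 4 at 0.2. Depth limits the silent pumps: ABCB1 rested on 15 fragments and ABCG2 on 31, so no fold between conditions is given for them. On the scale of log2(FPKM + 1) values this low hardly differ, so the 0 calls without a filter say little about these 2 genes. The same holds for ABCC3 and ABCB4.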
